A study of Homo sapiens with 30 samples.

Results

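Open chromatin was compared between RWPE1 prostate epithelial cells carrying constitutively active AKT (RWPE1+mAKT) and parental-type RWPE1 cells, each with 1 ATAC-seq library. The regions described are the 33000 peaks of lowest p-value in each line's peak list, out of 57999 peaks for RWPE1+mAKT and 55889 for RWPE1, and, where stated, all peaks of both lists. The series holds 30 samples, 4 of them ATAC-seq, and 219323 peaks in 4 ATAC-seq lists. RWPE1 is an immortalized, non-tumor line of prostate epithelium. The RWPE1+mAKT line was transduced with retroviruses carrying the empty vector PQCXIH and pBabe-Puro-Myr-AKT, and the sample labelled RWPE1-Vector ATAC carries pQCXIH and pBabe-puro with no insert, so both lines underwent infection and drug selection. The labels do not say whether a line is 1 clone or a pool. The RWPE1 list is named for RWPE1 in its file name and in every peak name, but the deposit attaches it to the sample labelled VCaP+LY294002 ERG ChIP, and it was taken here as the vector line on its names. With 1 library a line no test between lines was possible, and every difference below describes 2 libraries. Fewer cells with a site open and less signal per cell cannot be told apart in such bulk libraries.

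AKT is a serine/threonine kinase downstream of PI3-kinase. A myristoyl tag anchors it at the plasma membrane, where it stays active, and one of its known effects is to keep FOXO proteins, which bind forkhead sequences, out of the nucleus. In ATAC-seq a transposase cuts and tags DNA where nucleosomes are absent, so fragments pile up over active promoters and enhancers. In epithelial cells many enhancers hold the AP-1 sequence, which is bound by dimers of FOS and JUN proteins. The comparison asks whether active AKT, without ERG, came with different open regions.

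Regions present in 1 list alone are shown first, because the lists differ most clearly there. For each line the 10 peaks of lowest p-value with no peak of any rank of the other line within 1 kb were taken. Some of the first of these that held an AP-1 or a forkhead sequence are printed as the 300 bases at the peak centre, from hg19 on the plus strand, with that sequence in capitals (AP-1 is TGAGTCA or TGACTCA, forkhead is GTAAACA, on either strand). RWPE1+mAKT site 1 lies at chr2:189163763-189164062 in an intron of GULP1, site 2 at chr5:171416345-171416644 in an intron of FBXW11 and site 4 at chr9:131033500-131033799 over an exon of GOLGA2. RWPE1 site 6 lies at chr7:73427245-73427544, 14.5 kb from ELN, and site 9 at chr3:142695502-142695801 in an intron of U2SURP.
RWPE1+mAKT site 1: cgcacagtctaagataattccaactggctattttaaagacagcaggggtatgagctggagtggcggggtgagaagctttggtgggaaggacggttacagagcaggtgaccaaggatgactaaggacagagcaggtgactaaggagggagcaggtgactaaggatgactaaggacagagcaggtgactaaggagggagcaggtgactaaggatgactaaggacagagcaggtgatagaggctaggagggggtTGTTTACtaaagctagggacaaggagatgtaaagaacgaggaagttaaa
RWPE1+mAKT site 2: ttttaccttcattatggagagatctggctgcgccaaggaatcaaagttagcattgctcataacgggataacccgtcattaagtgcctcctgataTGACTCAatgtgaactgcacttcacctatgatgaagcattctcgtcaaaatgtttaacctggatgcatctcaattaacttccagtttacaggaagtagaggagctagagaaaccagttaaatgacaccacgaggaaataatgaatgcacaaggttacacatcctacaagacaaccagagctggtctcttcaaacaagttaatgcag
RWPE1+mAKT site 4: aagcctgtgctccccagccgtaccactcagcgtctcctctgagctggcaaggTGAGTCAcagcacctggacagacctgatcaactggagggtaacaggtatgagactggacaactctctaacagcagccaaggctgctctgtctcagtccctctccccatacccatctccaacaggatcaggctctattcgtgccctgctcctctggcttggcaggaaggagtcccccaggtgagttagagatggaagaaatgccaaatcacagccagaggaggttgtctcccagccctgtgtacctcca
RWPE1 site 6: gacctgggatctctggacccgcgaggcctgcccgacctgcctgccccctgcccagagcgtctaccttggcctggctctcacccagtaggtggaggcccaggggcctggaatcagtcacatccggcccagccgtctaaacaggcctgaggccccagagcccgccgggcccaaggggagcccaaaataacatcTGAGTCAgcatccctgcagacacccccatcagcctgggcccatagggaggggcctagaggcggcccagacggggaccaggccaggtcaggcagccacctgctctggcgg
RWPE1 site 9: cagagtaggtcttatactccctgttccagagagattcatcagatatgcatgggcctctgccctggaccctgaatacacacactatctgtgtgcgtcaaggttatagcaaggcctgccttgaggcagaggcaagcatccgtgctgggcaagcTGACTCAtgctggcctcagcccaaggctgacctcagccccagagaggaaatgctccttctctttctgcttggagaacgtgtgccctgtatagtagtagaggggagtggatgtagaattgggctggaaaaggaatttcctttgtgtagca

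Signal at these sites was moderate. It is given as the mean pileup, the number of sequenced fragments that overlap a base, averaged over the peak. RWPE1+mAKT site 1 had a pileup of 63.8, which was 9.35 times its local background, and ranked 8054 in its list. The same site was in both lists from ERG-expressing RWPE1 cells, with pileups of 32.96 in RWPE1-ERG and 34.7 in RWPE1-ERG+mAKT. GULP1, an adaptor for the engulfment of dying cells, had 2.04 FPKM (RNA fragments scaled by gene length and library size) in the vector line and 1.07 in RWPE1-mAKT. Site 2 had a pileup of 55.7 and FBXW11, a subunit of a ubiquitin ligase, had 23.3 and 22.2 FPKM. Site 3, over a UTR of DBN1, had a pileup of 132 but only 3.51 times its background, and the actin-binding protein gene DBN1 had 84.3 and 83.1 FPKM. The other 7 sites ranked from 12683 to 13472 and lay at GOLGA2, TANGO6 and HYDIN or nearest to GPCPD1, UBE2V1, UGT8 and GABARAPL3. Of the genes at these 10 sites, GULP1 had the lowest RNA level relative to vector among those above 1 FPKM, and UBE2V1 went from 128 to 140 FPKM.

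In the other direction, RWPE1 site 4, in an intron of the adhesion molecule gene NPTN, had a pileup of 119 in RWPE1, 243 in RWPE1-ERG and 20.1 in RWPE1-ERG+mAKT. All 10 RWPE1 sites were also peaks in RWPE1-ERG, and 5 of the 10 had no peak in RWPE1-ERG+mAKT. Of all 696 top RWPE1 peaks with no RWPE1+mAKT peak of any rank, RWPE1-ERG held 69.5% and RWPE1-ERG+mAKT, the shortest list, 23.1%. RNA of the nearest expressed genes was close between the lines. NPTN had 65.5 FPKM in vector and 64.4 with mAKT, F2RL1, which encodes a protease-activated receptor, had 34.5 and 34.4, and CARD10 had 27.9 and 24.6.

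The lists as a whole were of similar size. RWPE1 peaks covered 33.3 Mb with a median pileup of 32.8, and RWPE1+mAKT peaks covered 35.1 Mb with a median of 31.8. The lowest background value in each list corresponds to about 29900000 fragments for RWPE1 and 35700000 for RWPE1+mAKT, so the mAKT library was deeper. The median fold over background was 6.08 in RWPE1 and 5.26 in RWPE1+mAKT, the lower value in the deeper library. The rank limit fell where peaks just inside and outside did not differ, at a -log10 p of 14.84 on both sides in RWPE1 and 13.73 in RWPE1+mAKT.

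Most open regions were common to both lines. Of the top RWPE1+mAKT peaks, 85.8% overlapped a top RWPE1 peak by at least 1 bp (95% Wilson interval 85.4 to 86.2, n = 33000), and 86.0% of the top RWPE1 peaks overlapped a top RWPE1+mAKT peak (85.6 to 86.3). These intervals, and those below, cover counting error only. Many of the rest were matched by a peak of lower rank. A total of 1244 top RWPE1+mAKT peaks, or 3.77% (3.57 to 3.98), had no RWPE1 peak of any rank, and 696 top RWPE1 peaks, or 2.11% (1.96 to 2.27), had no RWPE1+mAKT peak of any rank. They are called peaks of RWPE1+mAKT alone and of RWPE1 alone, which means that the other library had no called peak there, not that it had no signal.

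The strongest regions did not include any such peak. Of the 5000 first-ranked peaks of each list, 0 were absent from the other (upper limit 0.0768%), and among ranks 5001 to 10000 there was 1 in each. The share then increased with rank, to 14.4% of RWPE1+mAKT peaks and 8.67% of RWPE1 peaks at ranks 30001 to 33000. At the ends of the lists it was 52.0% and 56.0%, as the plot by rank shows. From rank 10001 on the share was higher for RWPE1+mAKT in each bin but the last, where it was higher for RWPE1. Whether depth had a part in this was not tested.

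**Figure D1:**
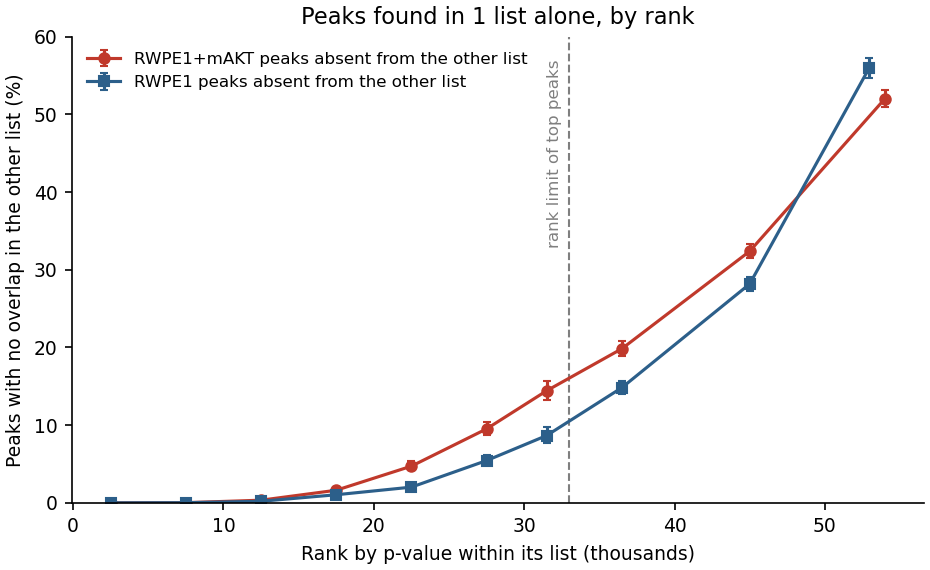
Share of peaks (%) with no overlapping peak of any rank in the other list, against rank by p-value within the list (in units of 1000), for RWPE1+mAKT (circles) and RWPE1 (squares), with 95% Wilson intervals as bars. Both lines lie at 0 for the 5000 strongest peaks and pass 50% only in the last bin.

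At shared sites the signal of both lines was closely related. A total of 47859 shared sites were pairs of 1 peak from each list, each the other's largest overlap. Their log2 pileups had a Pearson correlation of 0.926 across sites, which share libraries and are not independent. The median log2 ratio of RWPE1+mAKT over RWPE1 pileup was -0.10 without scaling and -0.35 per fragment sequenced. Ratios below are given relative to the median of all shared sites, so a value of 0 is the typical site, and scaling by depth instead would lower each by 0.35. The SD of the ratios was 0.45, and 75.1% of sites lay within 0.5 of the median. At least 2-fold higher signal with mAKT was found at 1202 sites (2.51%) and at least 2-fold lower signal at 420 (0.878%). That imbalance depends on the scaling, since scaling by depth gave 274 higher and 2472 lower sites.

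**Figure D2:**
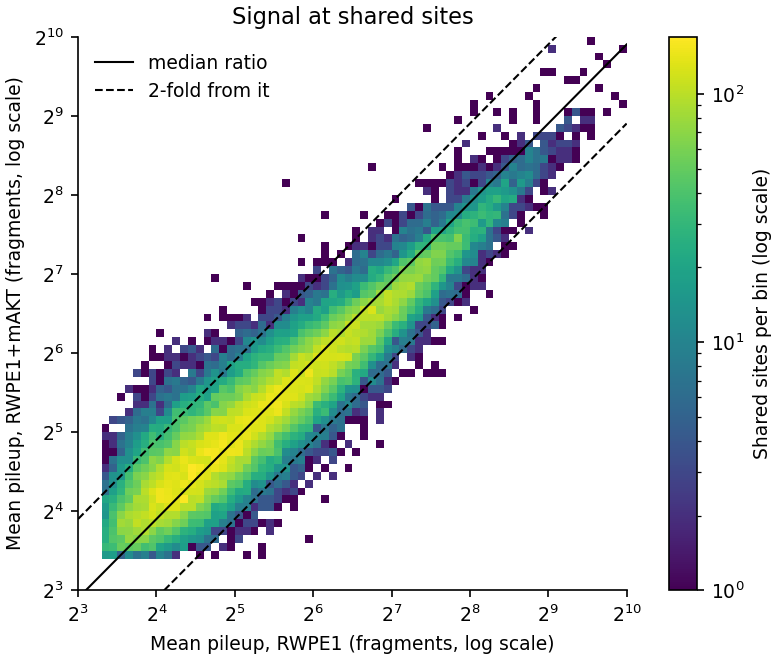
Mean pileup (fragments, log scale) in RWPE1+mAKT against RWPE1 at 47837 of the 47859 shared sites, with color for the number of sites per bin (log scale), a solid line at the median ratio and dashed lines 2-fold from it. The sites follow the median line over the whole range, with 75.1% within 0.5 (log2) of it.

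The ratio followed base composition. At sites of under 35% GC (910 sites) the median ratio was 0.43, at 45 to 50% GC (7538 sites) it was 0.13, and at 70% GC or more (6107 sites) it was -0.31. Of the sites of highest GC, 81.1% lay within 1 kb of a protein-coding start site. The correlation of GC with the ratio was -0.44 over 47549 windows. GC content, promoter position and library cannot be told apart here. After centring within GC bins, 692 sites were at least 2-fold higher and 386 at least 2-fold lower. Promoters made up 42.6% of the sites with at least 2-fold lower signal, 3.24% of those with at least 2-fold higher signal and 27.3% of all shared sites.

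The same sites were read in 2 other libraries, RWPE1-ERG and RWPE1-ERG+mAKT, which share no library with the pair above. At the 33747 sites present in all 4 lists, the ratio of RWPE1-ERG+mAKT over RWPE1-ERG had a correlation of 0.274 with that of RWPE1+mAKT over RWPE1 across sites, and 0.198 when both were centred within GC bins. Where RWPE1+mAKT was at least 2-fold higher than RWPE1 (604 sites), the median ratio in the ERG lines was 0.59 and 73.5% of sites were above 0. Where RWPE1+mAKT was 0.5 to 1 higher (3302 sites), the median was 0.50 and 73.8% were above 0. On the lower side, where RWPE1+mAKT was 0.5 to 1 lower (3782 sites), the median in the ERG lines was -0.16, with 38.5% above 0. Where it was at least 2-fold lower (322 sites), the median was 0.06, with 53.4% above 0.

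**Figure D3:**
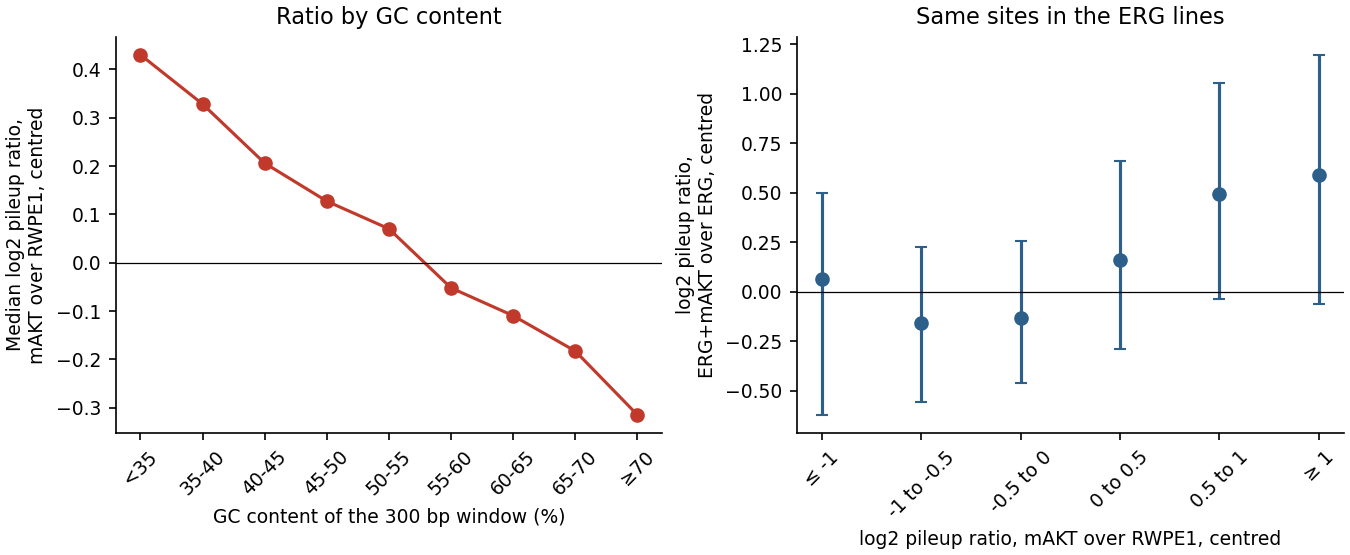
Left, median log2 pileup ratio of RWPE1+mAKT over RWPE1 relative to all shared sites, against GC content of the 300 bp window (%). Right, log2 ratio of RWPE1-ERG+mAKT over RWPE1-ERG (median, bars from the lower to the upper quartile) for sites binned by their RWPE1+mAKT over RWPE1 ratio. The median falls from 0.43 to -0.31 with GC, and the ERG lines are highest, at 0.50 and 0.59, in the upper 2 bins.

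The 6 sites of highest and the 6 of lowest ratio were looked at singly, after their values were seen. The highest was a site on chromosome 7 (start 23976, end 24487) with a pileup of 276 in RWPE1+mAKT and 49.3 in RWPE1, a ratio of 2.59, which also had a ratio of 2.43 between the ERG lines. The next, nearest to HS6ST1 at a distance of 267 kb, had 123 and 26.2, and the ratio between the ERG lines was 1.27. A site 153 kb from SPOCK3 had 118 and 35 with an ERG-line ratio of 3.14. Among the lowest, a site in an exon of SPTAN1 had 28.8 in RWPE1+mAKT and 116 in RWPE1, a ratio of -1.92 with -4.21 between the ERG lines. A site nearest to ALCAM had 23.3 and 87.3, and one at C16orf87 had 55.3 and 197 but an ERG-line ratio of 1.12. Of the 6 highest sites 5 were in all 4 lists and 4 of these were above 0 between the ERG lines, and of the 6 lowest 5 were in all 4 lists and 2 of these were below 0.

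AP-1 sequences were more frequent at peaks of RWPE1+mAKT alone than at other peaks. In 300 bp windows at peak centres, TGAGTCA or TGACTCA was found on either strand in 41.3% of the RWPE1+mAKT windows (513 of 1241, 95% Wilson interval 38.6 to 44.1) and in 26.1% of the RWPE1-alone windows (181 of 694, 22.95 to 29.5). Shared peaks ranked over 20000 and up to 33000, where most one-list peaks lie, held it in 23.3% by RWPE1+mAKT rank and 23.5% by RWPE1 rank. Windows 1 kb to either side of the RWPE1+mAKT-alone peaks held it in 4.03% and 4.35%, and RefSeq promoters (GRCh38.p14, 35116 windows of 300 bp) in 4.95%. Among shared sites it was in 33.8% of those at least 2-fold higher with mAKT, in 10.5% of those at least 2-fold lower and in 20.5% of all.

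The shares also moved with base composition. In windows of 40 to 50% GC alone, AP-1 was in 42.3% of the RWPE1+mAKT-alone windows (38.6 to 46.0), 30.9% of the RWPE1-alone windows (26.3 to 36.0) and 34.6% and 34.8% of the shared windows. In the same range the 2-fold higher and lower shared sites held it in 38.1% and 19.3%. Windows at peaks of RWPE1+mAKT alone therefore held AP-1 more often than those at shared peaks of like rank in this range. The interval of the RWPE1-alone windows overlapped that of the shared windows. Shared peaks are longer (median 491 bp against 289 bp for RWPE1+mAKT alone), so the window covers less of them, and whole shared peaks were not read. At 50 to 60% GC the shares were 37.3%, 22.3%, 22.9% and 23.6%.

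The forkhead sequence GTAAACA was in 8.22% of the RWPE1+mAKT-alone windows (102 of 1241, 6.82 to 9.88) and 3.89% of the RWPE1-alone windows (27 of 694, 2.69 to 5.60), against 5.36% and 5.54% of the shared windows and 3.42% of promoters. At 40 to 50% GC the shares were 8.90% (6.98 to 11.3) and 4.91% (3.09 to 7.73) against 5.74% and 5.71%. Windows 1 kb before and after the RWPE1+mAKT-alone peaks held it in 6.04% and 4.27%. At 50 to 60% GC the order was different, with 5.88% in RWPE1+mAKT-alone windows and 7.84% in shared windows. The SP/KLF sequence GGGCGGGG, common in promoters (22.8%), was in 1.53% of RWPE1+mAKT-alone, 6.34% of RWPE1-alone and 9.41% and 9.22% of shared windows, and at 40 to 50% GC in at most 1.34% of any of the 4.

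The remaining sequences were rarer than AP-1. TEAD (ACATTCCA) was in 2.42% and 2.74% of the windows of RWPE1+mAKT alone and RWPE1 alone, RUNX (TGTGGTTA or TGTGGTTT) in 4.59% and 5.62%, and the E-box CACGTG in 4.03% and 3.75%. Promoters held these in 1.17%, 2.28% and 7.26%. The ETS sequence CCGGAAGT was in 0.564% and 0.288%, against 1.49% and 1.46% of shared windows and 4.14% of promoters. GRHL (AACCGGTT) was in 5 of 1241 and 0 of 694 windows, and in 0.134% of promoters. Matches to the p63 half-site pair (2.34% and 2.88%), IRF (4.92% and 4.03%) and NF-kB (1.45% and 1.59%) had overlapping intervals in the 2 classes, and promoters held them in 0.373%, 3.57% and 1.91%. CTCF matches were in 0.725% (0.382 to 1.37) and 2.16% (1.31 to 3.54), with 1.51% and 1.96% in shared windows and 1.05% in promoters. A match is only a description of the letters and not evidence of binding.

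**Figure D4:**
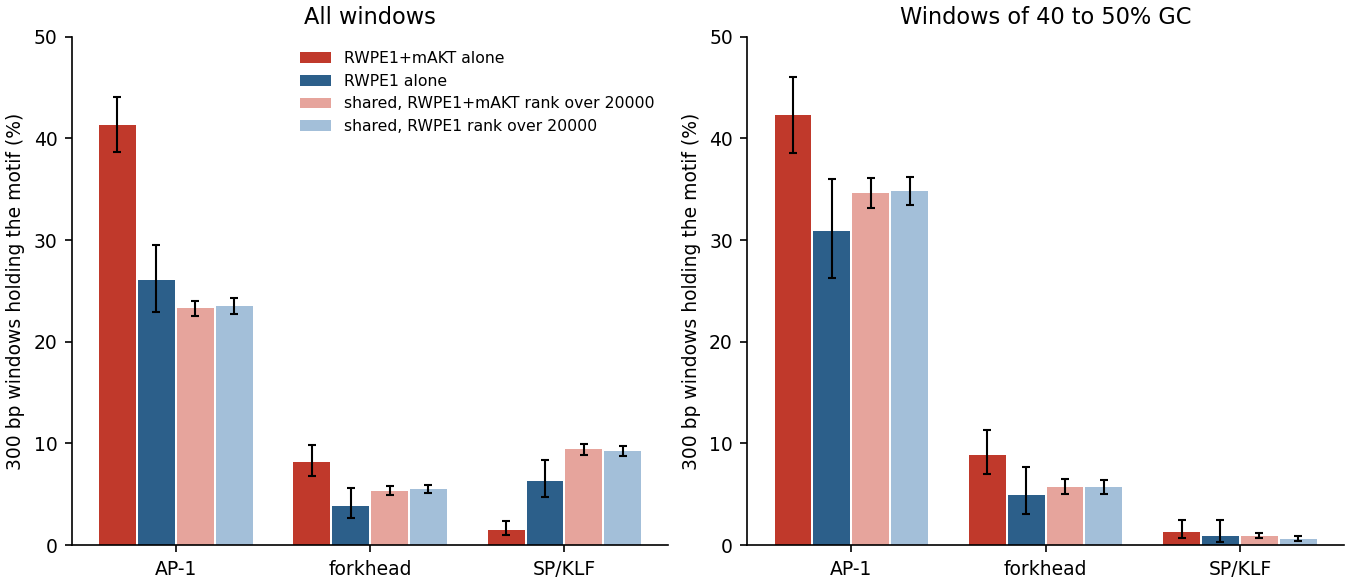
Share (%) of 300 bp windows that hold an AP-1, forkhead or SP/KLF sequence, in peaks of RWPE1+mAKT alone, peaks of RWPE1 alone and shared peaks ranked over 20000 and up to 33000 in each list, with 95% Wilson intervals, for all windows (left) and those of 40 to 50% GC (right). The AP-1 bar of RWPE1+mAKT alone is the highest in both panels, at 41.3% and 42.3%.

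One-list peaks also had other features in common. They were short, with a median length of 289 bp for RWPE1+mAKT and 278 bp for RWPE1 against 491 and 470 bp for shared peaks ranked over 20000. A shorter peak has less room to overlap another, so length is not independent of the overlap rule. One-list peaks were far from promoters, with 2.57% and 7.33% within 1 kb of a protein-coding start against 22.1% and 20.4%. Mean GC was 45.2% at RWPE1+mAKT-alone peaks, 51.0% at RWPE1-alone peaks and 52.9% and 53.3% at shared peaks. H3K27me3, a repressive histone mark measured in the vector line, overlapped 10.6% (9.02 to 12.4) of RWPE1+mAKT-alone peaks, 7.47% (5.74 to 9.67) of RWPE1-alone peaks and 6.98% and 6.95% of the shared peaks. The H3K27me3 list, from 1 library, held 492265 peaks.

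Peaks of both classes were found less often in the ERG lines than shared peaks were. Shared peaks were chosen for being called in both libraries, so their larger share in further lists is not independent of that choice. The RWPE1-ERG list held 46.9% of RWPE1+mAKT-alone peaks and 69.5% of RWPE1-alone peaks, against 88.0% and 89.9% of the shared classes. RWPE1-ERG+mAKT, the shortest list with 42081 peaks, held 31.2% and 23.1%, against 74.3% and 73.3%. Presence in RWPE1-ERG+mAKT but not RWPE1-ERG was seen for 10.6% of RWPE1+mAKT-alone peaks (132 of 1244, 9.02 to 12.4) and 3.59% of RWPE1-alone peaks (25 of 696, 2.45 to 5.25), and for 4.44% and 3.8% of the shared classes. Presence in RWPE1-ERG alone of the ERG lines was seen for 26.3% and 50.0%, against 18.1% and 20.3%. ERG binding peaks of RWPE1-ERG+mAKT cells overlapped 1.13% of RWPE1+mAKT-alone peaks and 2.16% of RWPE1-alone peaks, against 2.86% and 2.84%. The RWPE1+mAKT-alone peaks thus had the larger share found only in the ERG line with mAKT, although 42.5% of them were in neither ERG list.

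RNA levels are available as 1 FPKM value a line, made by the authors from 3 libraries each, so no spread between libraries can be given for them. The introduced gene was higher in the line that carries it, with AKT1 at 58.7 FPKM in vector and 156 in RWPE1-mAKT. The lines kept basal keratins. KRT5 had 3126 and 3642 FPKM, KRT14 2936 and 2527, and KRT17 3105 and 3262. Luminal KRT8 (622 and 671) and KRT18 (817 and 987) were also high, whereas KLK3, which marks prostate luminal cells, was listed at 0. Markers of other cells were low, with at most 0.764 FPKM for the 5 leukocyte markers and 2.05 for the 6 fibroblast markers. Of the 7 endothelial markers only EGFL7 passed 1 FPKM, at 14.1 and 13.2.

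Genes nearest to one-list peaks had almost the same RNA levels in both lines. Log2 ratios of RNA are of (FPKM + 1) in RWPE1-mAKT over vector, and a gene is called expressed at 1 FPKM or more in either line. Counts of genes at least 2-fold higher or lower in RNA use these ratios, with 1 FPKM added to both values. Over all 12265 expressed genes the median was 0.02, with 145 (1.18%) at least 2-fold higher with mAKT and 103 (0.84%) at least 2-fold lower, of which 102 and 68 were small RNA genes. Of the 631 expressed genes nearest to a peak of RWPE1+mAKT alone, 2 were at least 2-fold higher and 3 lower, with a median of 0.03. Of the 380 nearest to a peak of RWPE1 alone, 3 were higher and 3 lower, with a median of 0.0003. Small RNA genes, which were most of the genes past 2-fold among all genes, were 0 of the first 5 and 1 of the other 6.

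Genes with several one-list peaks were likewise close in RNA. KCNMA1, a potassium channel gene, was nearest to 3 peaks of RWPE1+mAKT alone and had 39.9 and 46.4 FPKM. SERBP1, GNG12, LOC645166 and TIPARP had 2 such peaks each and log2 RNA ratios from -0.10 to 0.14. SRPK2, a splicing factor kinase gene, was nearest to 3 peaks of RWPE1 alone and had 17.1 and 15.1 FPKM. SEPTIN9, TPGS2, CCDC12 and EXT1 had 2 each. Of these 4, TPGS2 had the lowest ratio, with 39.96 and 27.8 FPKM (-0.51), and CCDC12 the highest, with 32.6 and 39.5 (0.27).

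When genes were instead taken by RNA, nearby shared sites leaned the same way. Over 10741 expressed genes with a shared site within 20 kb, small RNA genes left out, the median of each gene's sites was -0.09, and 36.2% of genes were above 0. The 37 genes with at least 2-fold higher RNA had a median of 0.18 and 27 of 37 (73.0%) were above 0. The 29 genes with at least 2-fold lower RNA had a median of -0.28 and 5 of 29 (17.2%) were above 0. Centred within GC bins the medians were 0.18 and -0.28, against -0.01 for all. Scaled by depth they were -0.18 and -0.63, against -0.45 for all, so the sign for the first group rests on the centring while the order of the groups does not. Across the 10741 genes the correlation of RNA and site ratios was only 0.139. Genes share sites and loci and are not independent.

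One-list peaks followed RNA less. Of 10796 expressed genes, 658 (6.09%) had a top peak of RWPE1+mAKT alone within 20 kb and 389 (3.6%) one of RWPE1 alone. Among the 37 genes with at least 2-fold higher RNA the counts were 2 and 4, and among the 30 with lower RNA they were 1 and 3. SPRR1B, SPRR2A and SPRR2D are among those 4 and share the same peak of RWPE1 alone. With peaks of all ranks, 19 of the 37 (51.4%) had a peak of RWPE1+mAKT alone and 12 (32.4%) one of RWPE1 alone, against 37.8% and 29.6% of all genes. Among the 30 lower genes, 6 (20.0%) and 8 (26.7%) had one.

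Epidermal differentiation genes, which build the cornified layer of stratified epithelium, had the highest median RNA ratio of the lists compared. Of 30 genes 20 were expressed, their median log2 RNA ratio was 0.98, 19 of 20 were above 0, and 10 were at least 2-fold higher with mAKT and 0 lower. KRT13, a keratin of upper epithelial layers, had 4.10 FPKM in vector and 111 with mAKT. SPRR1A and SPRR1B, precursors of the cornified envelope, had 1.00 and 20.3 FPKM, and 6.47 and 45.9 FPKM. S100A8, which encodes a calcium-binding protein, had 3.64 and 13.9. KLK5, a protease that sheds skin cells, had 0.700 and 3.87, and KRT4 had 0.266 and 3.48. KRT6A, the most abundant member, went the other way, with 1075 and 946.

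Open chromatin near these genes was higher with mAKT relative to the typical site. The list had 64 distinct shared sites within 20 kb, with a median ratio of 0.24, and 44 of them (68.8%) were above 0, against 50.0% of all shared sites. Centred within GC bins the median was 0.25, and scaled by depth it was -0.12, against -0.35 for all sites. A total of 6 sites were at least 2-fold higher and 0 at least 2-fold lower. Peaks of any rank within 20 kb and in 1 list alone numbered 20 for RWPE1+mAKT and 5 for RWPE1, where the whole lists held 10035 and 7848 such peaks, and among top peaks there were 2 and 1. Many of these genes lie in clusters on chromosomes 1, 12, 17 and 19, so that neighbours share sites.

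Single sites show where the signal lay. They were chosen after their values were seen. At -2.21 kb from the start of IVL, which encodes the envelope protein involucrin, the pileup was 148 in RWPE1+mAKT and 83.6 in RWPE1, a ratio of 0.92, and IVL had 1.64 and 0.260 FPKM in RWPE1-mAKT and vector. Unscaled pileups in the ERG lines there were 34.4 in RWPE1-ERG and 33.9 in RWPE1-ERG+mAKT. The median pileup of all peaks was 35.6 in the first of these lists and 27.9 in the second, so these 2 values are not a centred ratio. At -5.71 kb from KRT10, a keratin of differentiating cells, it was 81.9 and 34.2, a ratio of 1.36, and KRT10 had 16.6 FPKM with mAKT and 13.5 in vector. At -14.7 kb from CSTA, a cystatin of the cornified envelope, a peak with a pileup of 46.3 was found in RWPE1+mAKT alone, and CSTA had 125 FPKM with mAKT and 67.1 in vector. The windows at these sites, chr1:152878665-152878964, chr17:38984431-38984730 and chr3:122029275-122029574, are printed because they carry the differences just given, with AP-1 (IVL, KRT10) or forkhead (CSTA) letters in capitals.
IVL site: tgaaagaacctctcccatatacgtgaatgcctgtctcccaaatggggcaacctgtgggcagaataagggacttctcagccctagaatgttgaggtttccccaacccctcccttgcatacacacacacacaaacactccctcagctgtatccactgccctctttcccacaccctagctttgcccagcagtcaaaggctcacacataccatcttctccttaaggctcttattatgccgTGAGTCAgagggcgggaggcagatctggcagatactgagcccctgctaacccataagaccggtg
KRT10 site: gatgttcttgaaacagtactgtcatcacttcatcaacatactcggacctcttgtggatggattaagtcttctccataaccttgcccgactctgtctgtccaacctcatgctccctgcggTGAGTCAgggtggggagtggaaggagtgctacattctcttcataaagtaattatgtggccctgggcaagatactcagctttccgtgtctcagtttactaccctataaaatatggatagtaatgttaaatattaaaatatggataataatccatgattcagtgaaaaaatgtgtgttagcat
CSTA site: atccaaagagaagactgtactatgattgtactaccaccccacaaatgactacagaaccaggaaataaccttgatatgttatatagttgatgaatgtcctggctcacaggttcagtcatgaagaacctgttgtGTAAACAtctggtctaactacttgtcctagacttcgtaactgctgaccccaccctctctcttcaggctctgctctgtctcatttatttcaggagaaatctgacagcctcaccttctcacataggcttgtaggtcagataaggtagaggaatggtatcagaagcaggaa

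CSTA had further sites of higher signal, with 56.8 against 25.3 at -10.7 kb and 38.8 against 22.8 at -6.41 kb. Its promoter, however, had 61.2 and 65.4, a ratio of 0.00. Distal sites of other members were likewise higher. S100A9 had 81.8 and 36.0 at 7.14 kb (ratio 1.28) but 44.2 and 60.3 at its promoter (-0.35). KLK5 had 52.0 and 26.0 at 9.63 kb (1.10) and 22.5 and 17.4 at its start (0.47). LCE3D, whose RNA was below 1 FPKM in both lines, had 56.3 and 20.9 at 13.6 kb, with a ratio of 1.53. At KRT4 the start itself differed, with 24.3 and 10.9 (1.25), where the RWPE1 value is low beside the median pileup of 32.8 of its list. At KRT13, the gene with the largest RNA difference, 5 shared sites had ratios from 0.12 to 0.89.

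Other members did not follow. KRT6B had 14.2 FPKM with mAKT and 5.26 in vector, yet its 4 shared sites had ratios from -0.60 to -0.15. KRT16 had 50.5 and 28.1 FPKM, with sites from -0.73 to 0.32 that it shares in part with KRT17. SPRR1B had a site of 91.9 and 136 at 1.98 kb (-0.46) beside one of 23.9 and 12.0 at 10.1 kb (1.09), again with a low RWPE1 value. It also had a peak of RWPE1 alone with a pileup of 34.7 at 15.4 kb.

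**Figure D5:**
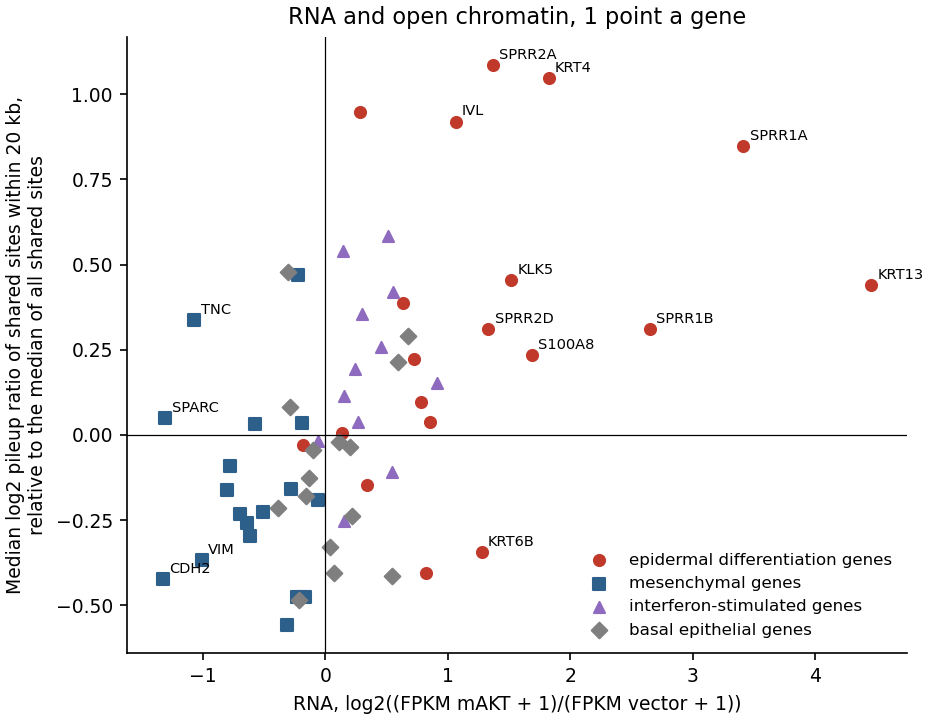
Median log2 pileup ratio of a gene's shared sites within 20 kb, relative to all shared sites, against the log2 RNA ratio of RWPE1-mAKT over vector, 1 point for each expressed gene of 4 lists, with names for genes of at least 2-fold RNA difference. Epidermal genes spread to the right, with KRT13 at 4.46 on the RNA axis and 0.44 on the site axis, and mesenchymal genes lie to the left of 0.

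Mesenchymal genes had lower RNA with mAKT, with a less clear difference at their sites. Of 24 genes 18 were expressed, their median log2 RNA ratio was -0.60, 0 were above 0 and 4 were at least 2-fold lower with 1 FPKM added. VIM, the intermediate filament of mesenchymal cells, had 737 FPKM in vector and 366 with mAKT. SPARC, a matrix protein gene, had 31.6 and 12.2, TNC, another matrix protein gene, 24.9 and 11.4, and the cadherin gene CDH2 3.04 and 0.610. The 94 shared sites near the list had a median ratio of -0.003 (-0.09 within GC bins, -0.36 scaled by depth), and 47 were above 0. By gene, 8 of 22 medians were above 0, close to the 36.2% of all expressed genes with a shared site. VIM's 3 sites had ratios from -0.40 to 0.03 and the 2 of CDH2 from -0.82 to -0.02. TNC had a median of 0.34, which was 0.009 within GC bins and -0.02 scaled by depth. Top peaks of RWPE1 alone lay within 20 kb of SNAI2, CYR61 and AXL, whose RNA was 68.5, 65.4 and 34.5 FPKM in vector and 54.9, 37.7 and 29.3 with mAKT, and 1 top peak of RWPE1+mAKT alone lay near ITGA5.

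Interferon-stimulated genes were slightly higher in both measures. Of 15 genes 13 were expressed, with a median log2 RNA ratio of 0.30, 12 above 0 and 0 at least 2-fold different with 1 FPKM added. IFI27 had 3.96 FPKM in vector and 8.34 with mAKT (log2 ratio 0.91), and IFIT3 had 4.12 and 6.31. Their 37 shared sites had a median ratio of 0.17 (0.21 within GC bins, -0.18 scaled by depth), and 29 were above 0. Peaks of any rank in 1 list alone numbered 12 for RWPE1+mAKT and 3 for RWPE1, against 10035 and 7848 in the whole lists. Luminal genes had 12 and 7 such peaks, and the AKT and FOXO list had 18 and 6.

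AP-1 subunit genes did not have higher RNA with mAKT. Of 10 expressed genes 3 were above 0, with a median of -0.06. FOSL1 had 119 FPKM in vector and 100.4 with mAKT, JUNB 111 and 118, JUND 78.2 and 56.7, and JUN 44.8 and 43.99. Their 60 shared sites had a median ratio of -0.22, which was -0.07 within GC bins and -0.57 scaled by depth. JUN and BATF2, the latter below 1 FPKM in both lines, each had a top peak of RWPE1+mAKT alone within 20 kb, and none of the list had one of RWPE1 alone.

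Genes of the AKT pathway and FOXO targets had RNA close to that of the typical gene. Of 22 expressed genes 12 were above 0, with a median of 0.02, and only AKT1 was at least 2-fold different. IRS2, an insulin receptor substrate gene, had 11.6 and 8.56 FPKM with 4 sites from -0.67 to -0.26. The 82 shared sites of the list had a median ratio of -0.10 (-0.06 within GC bins and -0.46 scaled by depth). Beside the 18 and 6 one-list peaks of any rank given above, 3 top peaks of RWPE1+mAKT alone and 1 of RWPE1 alone lay within 20 kb.

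The remaining 5 lists, with the markers of other cells left out, had median RNA ratios between 0.03 and 0.11. Basal epithelial genes had 0.03 and 106 sites with a median of -0.11 (-0.23 within GC bins), and luminal genes had 0.11 and 42 sites with 0.01 (0.06). Sterol and fatty acid synthesis genes had 0.03 and 52 sites with -0.13 (0.00), and glycolysis and hypoxia genes 0.07 and 79 sites with -0.04 (0.02). Inflammatory cytokine genes had 0.05 and 31 sites with 0.07, which was -0.12 within GC bins. In these 5 lists 0 genes were at least 2-fold different in RNA with 1 FPKM added. Scaled by depth the site medians of all 5 were below 0, from -0.49 to -0.29.

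The largest RNA differences were taken among genes within 50 kb of a one-list peak and with at least 5 FPKM in the higher line. They lay beside peaks of both lists. At 1 FPKM or more, 551 genes were nearest to a peak of RWPE1+mAKT alone within 50 kb and 328 to one of RWPE1 alone. Of the 10 highest ratios of mAKT over vector, 4 were at genes nearest to a peak of RWPE1+mAKT alone (NOTCH3, SNORD1C, CSTA and PTHLH) and 6 at genes nearest to one of RWPE1 alone (AQP3, CALML3, FXYD3, TNFAIP2, TIMP3 and PTGES). Of the 10 lowest ratios, 6 were at genes near a peak of RWPE1 alone (PID1, DNAJB5, SCARNA17,SNHG22, CDK14, NEDD4L and DHRS3). Another 3 were near one of RWPE1+mAKT alone (NPTX2 and VIM among them), and NRP2 was near both. SCARNA17,SNHG22 and NEDD4L lie on chromosome 18, as does TPGS2 above. On that chromosome 4.96% of top RWPE1 peaks were of RWPE1 alone, against 2.11% of all, and the median ratio of shared sites was -0.10. Whether the whole chromosome differed between the libraries was not tested.

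Values of the leading genes show peaks of both lists. NOTCH3, a receptor of the Notch pathway, had 2.98 FPKM in vector and 7.37 with mAKT and an intronic peak of RWPE1+mAKT alone with a pileup of 39.8, while its shared sites ran from -0.39 to 0.59. PTHLH, which encodes parathyroid hormone-related protein, had 42.0 and 61.7 FPKM, an intronic peak of RWPE1+mAKT alone of 59.3, which was also in RWPE1-ERG (28.3) and RWPE1-ERG+mAKT (52.5), and a shared site of 47.0 and 23.9 at -9.35 kb (1.07). AQP3, a water and glycerol channel gene, had 11.8 and 28.5 FPKM and a top peak of RWPE1 alone of 41.4 in its UTR. Around AQP3 there were also 3 peaks of RWPE1+mAKT alone of lower rank, with pileups of 22.7, 25.2 and 31.6, and its shared sites had ratios of 0.47 at the start, -0.16 and 0.15. On the lower side, PID1, an adaptor gene, had 8.48 and 1.86 FPKM, a peak of RWPE1 alone of 28.7 at 0.215 kb from its start, and shared sites at -0.38 and -0.66. NPTX2, a neuronal pentraxin gene, had 8.89 and 3.08 FPKM, and its promoter had 32.6 in RWPE1+mAKT and 68.3 in RWPE1 (-0.97), beside an intronic peak of RWPE1+mAKT alone of 40.2. NRP2, a semaphorin receptor gene, had 6.01 and 3.701 FPKM and 5 shared sites, all between -0.69 and -0.24.

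Small differences were found at DLG1, a scaffold protein gene, and IL4R, a cytokine receptor gene. DLG1 had 15.1 FPKM in vector and 16.4 with mAKT, and its promoter had pileups of 93.8 in RWPE1+mAKT and 102 in RWPE1 (-0.02). IL4R had 20.5 and 20.7 FPKM and 5 shared sites from -0.17 to 0.31, and neither gene had a top one-list peak within 20 kb.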

How the data were processed

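ATAC-seq was done by the authors on 1 library a line. Reads were aligned with Bowtie2 to hg19, duplicates were removed with Picard and broad peaks were called with MACS2 (2.2.7.1 in the one header present) without a control library. The deposited columns hold coverage signal (mean pileup, unscaled), fold enrichment over local background (a ratio) and -log10 p and q values. RWPE1 depth was derived from the lowest background value. The authors gave FPKM per line from TopHat2, Cuffdiff and cummeRbund, 1 pooled value over 3 libraries, and columns of fold changes and p-values, which were not used. The table's locus column is shared between genes for 33.9% of its genes, so sites of listed genes were taken from GENCODE v44lift37 spans (84.0% of genes matched), and sites near a gene are those within 20 kb of its span. Of 201 listed genes 200 were in the table.

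Peaks were ranked by p-value. Shared sites were pairs of peaks that were each the other's largest overlap, and log2 pileup ratios were centred on their median. Motif windows of 300 bp were read from hg19 on chromosomes 1 to 22 and X. RNA ratios used a pseudocount of 1 FPKM. Named were the 10 strongest peaks a list with none of the other within 1 kb, the 5 genes with most one-list peaks, the 10 highest and 10 lowest RNA ratios within 50 kb of one-list peaks, members of the gene lists with a 2-fold or 5 FPKM level or a one-list peak, DLG1 and IL4R. Members and lists were chosen with earlier results of these data known. Alternatives were other rank limits, overlaps, windows, pseudocounts and filters. Overlap, nearest gene and motif steps were tested on simulated data and recovered 100.0% of what was put in. Scripts ran under Python 3.11.15 with pandas 2.3.3, and sequences were read with pysam 0.24.0. Some items the naming rule would include are not reported here.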

Additional observations from a re-analysis of the deposited data

How the results depend on the processing

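The overlaps of top peaks, 85.8% and 86.0%, moved by a few percentage points when other limits were set. For RWPE1+mAKT peaks the share was 83.05% with the top 10000, 85.12% with the top 20000, 82.7% with all peaks, 82.8% ranked by fold enrichment and 83.8% at a q of at most 0.001. For RWPE1 peaks it was 83.11%, 85.2%, 82.8% ranked by fold enrichment and 86.8% at that q, and all peaks gave 86.0%. Requiring an overlap of 0.5 of the shorter peak, allowing a gap of 1 kb or leaving out other sequences than chromosomes 1 to 22 and X moved no share beyond its interval. Over all peaks, chosen after seeing the data, the shares with no peak in the other list were 17.3% for RWPE1+mAKT and 14.0% for RWPE1.

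The AP-1 share of RWPE1+mAKT-alone peaks was 35.6% in 200 bp windows, 44.7% in whole peaks and 37.3% at 50 to 60% GC, and that of RWPE1-alone peaks was 21.5% in 200 bp windows, 30.9% at 40 to 50% GC and 22.3% at 50 to 60% GC. The GC ranges were chosen after seeing the data. The share was higher at RWPE1+mAKT-alone peaks under each. With no filter on FPKM, the median RNA ratio of genes nearest to RWPE1+mAKT-alone peaks was 0.

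Ratios at shared sites depend on how libraries are scaled. By fold enrichment 122 sites were at least 2-fold higher and 31 lower. No paired analysis was possible because each line has 1 ATAC-seq library and 1 FPKM value, and no replicate could be left out. Mean pileup also depends on where each peak was called to end.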
